A study of Mus musculus with 2 samples.

Results

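The 142 transfer RNA (tRNA) genes of mouse chromosomes 1 and 13 were examined for H3K9me3, a histone mark of silenced chromatin, in intestinal stem cells. Members are the RefSeq genes of GRCm38 on these 2 chromosomes whose symbols start with n-T, of 403 such genes on all chromosomes and of 49595 annotated genes. Chromosome 1 holds 37 members and chromosome 13 holds 105. The clusters compared were selected on the authors' peak scores, since n-TEctc5 and n-TDgtc3 had already been seen to hold high-scoring peaks, so the counts below describe the set and carry no test. A member was counted as marked when a deposited peak touched the gene or the 1 kb on either side, and a peak shared by several genes was counted once.

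Stem cells were sorted as GFP-high and CD24-low from C57BL/6 mice of 8 weeks that carried the Lgr5-EGFP-IRES-creERT2 allele together with setdb1fl/fl. Lgr5 drives both GFP and the inducible Cre in crypt stem cells, and setdb1fl/fl is a floxed allele of the H3K9 methyltransferase gene Setdb1. Cells of 12 mice were pooled into 1 ChIP library made with an H3K9me3 antibody and 1 control library, called input in its title and IgG in its antibody label, and no label says whether Setdb1 had been deleted. There is no replicate, so each value stands alone and its interval covers counting error only. The list holds 39972 peaks on chromosomes 1 to 19, X and Y, with a median of 16.5 ChIP tags, a median of 1 control tag, a median fold over control of 12.3 and a lowest fold of 4.

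Transfer RNAs carry amino acids to the ribosome and read codons through their anticodon. Their genes are short, are transcribed by RNA polymerase III from promoter elements inside the gene, the A box and the B box, and lie in clusters of many copies. In a member's symbol, the capital after n-T is the amino acid and the 3 lower-case letters are the anticodon, so n-TEctc5 is a glutamate tRNA gene with the anticodon CTC. H3K9me3 is best known over repeated sequence, where it keeps transcription low.

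No sequence of a marked member on chromosome 1 was used here. The sequence that lies inside the first repeat unit of marked tRNA genes is that of Mir6546, a microRNA gene on the minus strand at chr1:171064591-171064652, and it is shown to place the mark within the cluster. It begins 355 bp after the end of n-TEctc5 and ends 46 bp before n-TGtcc1, and the peak that covers both genes covers it too. The hairpin is given with its mature arms in capitals, and the arms with their seeds (bases 2 to 8) in capitals, from RefSeq on GRCm38.p6.
Mir6546: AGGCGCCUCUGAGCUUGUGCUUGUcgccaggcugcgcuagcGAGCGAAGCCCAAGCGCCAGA
mmu-miR-6546-5p: aGGCGCCUcugagcuugugcuugu
mmu-miR-6546-3p: gAGCGAAGcccaagcgccaga

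For chromosome 13, the whole sequence of 3 members could be read from RefSeq promoter windows and a microRNA hairpin that span them. They are shown as examples of intact tRNA genes without a peak. Capitals mark the letters of the B box (GTTCNANNC). The alanine gene n-TAagc16 lies at chr13:21222586-21222657 on the plus strand and is 218104 bp from the nearest peak. The valine gene n-TVcac9 lies at chr13:23446142-23446214 on the minus strand, 33952 bp from a peak. The isoleucine gene n-TItat14 lies at chr13:21896938-21897031 on the minus strand, 20500 bp from a peak, overlaps Mir1983 and is given as RNA with its intron.
n-TAagc16: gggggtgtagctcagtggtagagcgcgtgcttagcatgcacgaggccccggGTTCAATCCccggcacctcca
n-TVcac9: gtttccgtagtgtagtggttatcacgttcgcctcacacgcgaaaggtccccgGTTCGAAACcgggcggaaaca
n-TItat14: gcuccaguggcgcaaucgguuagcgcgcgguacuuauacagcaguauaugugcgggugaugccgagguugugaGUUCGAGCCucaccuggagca
The B box letters occur 1 time in each. For n-TAagc16 and n-TVcac9 the strand shown is the one that holds them, while n-TItat14 was given the strand of the Mir1983 hairpin. Over all 32851 RefSeq promoter windows of 300 bp, read on both strands, 9.32% hold them. A match is a description of the letters and not of binding.

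Of the 142 members, 25 (17.6%) had a peak within 1 kb, and these 25 genes shared 10 peaks. By the same rule a peak was found at 31.8% of all annotated genes, 28.3% of the genes of both chromosomes together, 30.1% on chromosome 1 alone, 26.0% on chromosome 13 alone and 49.2% of protein-coding genes. Those genes are much longer than a tRNA gene and so offer more sequence to a peak. Among genes of similar length, 14.2% of the 261 tRNA genes on other chromosomes had a peak, as did 16.5% of microRNA genes, 6.47% of small nucleolar RNA genes and 3.81% of small nuclear RNA genes. The share over all members therefore lay close to that of other tRNA genes and microRNA genes, and it hid a wide gap between the clusters.

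On chromosome 1, 26 members lie around the Fc receptor gene Fcgr3, from n-TNgtt6 at 171033942 to n-THatg1 at 171669511, called the Fcgr3 cluster here, and 19 of them (73.1%) had a peak. On chromosome 13, 104 members lie in 2 dense runs, called the chromosome 13 cluster, and 3 of them (2.88%) had one. Exact 95% intervals were 52.2 to 88.4% and 0.599 to 8.20%, but they treat genes that share a peak as separate, and the 19 genes shared 6 peaks and the 3 genes 2. Of the 11 members elsewhere on chromosome 1, 2 had a peak, and the lysine gene n-TKctt6, the remaining member of chromosome 13, had one. Other small RNA genes (microRNA, small nucleolar and small nuclear RNA) had a peak at 3.62% on chromosome 1 and at 4.31% on chromosome 13, and the share in the chromosome 13 cluster was near this background.

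**Figure D1:**
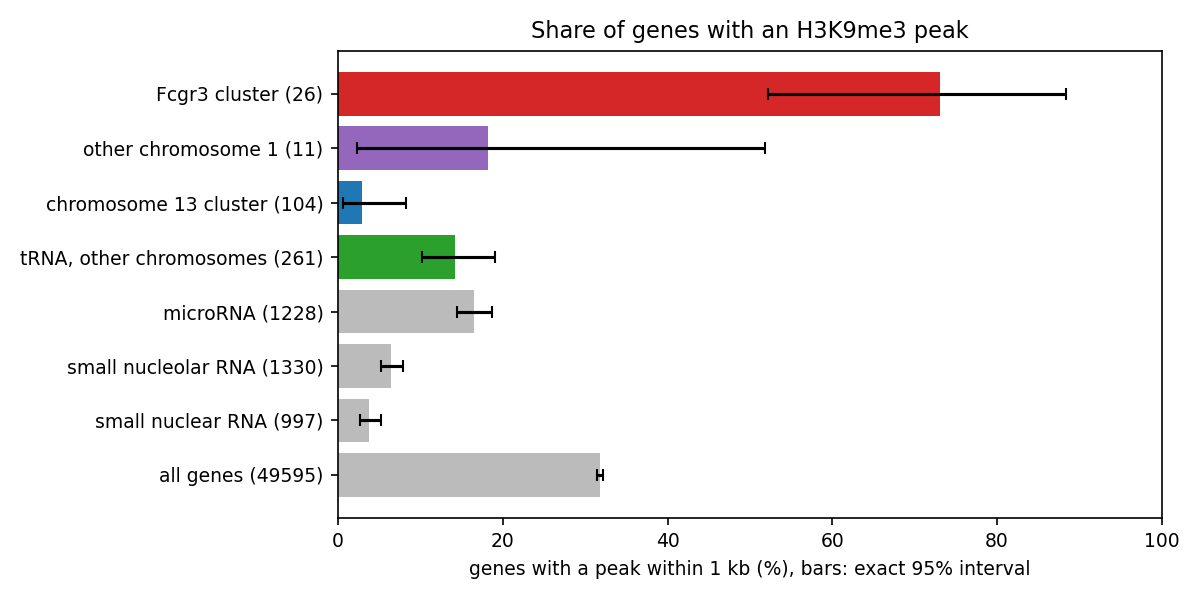
Share of genes (horizontal axis, %) with an H3K9me3 peak within 1 kb, by gene group (vertical axis, number of genes in brackets), with exact 95% intervals as error bars. The Fcgr3 cluster stands at 73.1%. The chromosome 13 cluster stands at 2.88%, below the 14.2% of tRNA genes on other chromosomes and near the 3.81% of small nuclear RNA genes.

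Of the 19 marked genes of the Fcgr3 cluster, 15 were in 3 copies of the same unit. Each unit holds, in this order, a glutamate gene (anticodon CTC), a glycine gene (TCC), an aspartate gene (GTC), a leucine gene (CAG) and a second glycine gene (GCC). The first unit (n-TEctc5, n-TGtcc1, n-TDgtc3, n-TLcag6 and n-TGgcc12) spans 171064164 to 171066701, the second (n-TEctc8, n-TGtcc5, n-TDgtc7, n-TLcag7 and n-TGgcc13) spans 171071792 to 171074372, and the third (n-TEctc7, n-TGtcc4, n-TDgtc6, n-TLcag8 and n-TGgcc14) spans 171079406 to 171081946. The second unit starts 7628 bp after the first and the third 7614 bp after the second. Spacing inside them was nearly constant. The aspartate gene starts 659 bp after the glycine TCC gene and the leucine gene 626 bp after the aspartate gene in all 3 units, while the step from the glutamate to the glycine TCC gene is 535, 542 and 542 bp and that from the leucine to the glycine GCC gene 647, 683 and 643 bp. The first 3 genes of the first unit lie inside the annotated span of Fcgr3, which ends at 171065915.

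All 15 genes of the units had a peak within 1 kb, and 12 of them, 4 in each unit, lay under a peak. These 15 genes are not 15 separate observations, because they shared 5 peaks. The 3 genes that lay outside a peak were n-TDgtc3 in the first unit, n-TGgcc13 in the second, 645 bp from a peak, and n-TDgtc6 in the third, 469 bp from one. Peaks covered 63.0% of the first unit, 72.3% of the second and 58.4% of the third.

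The 5 peaks at the units were tall. The peak over n-TEctc5 and n-TGtcc1 (171063559 to 171065105, 1546 bp) had 39.5 control tags and 278 ChIP tags, with an exact Poisson 95% interval of 246 to 313. The peak over n-TLcag6 and n-TGgcc12 (171066045 to 171067338, 1293 bp) held 99 ChIP tags (80.5 to 120.5) and 12 control tags. These 2 peaks belong to the first unit, and the gap between them holds n-TDgtc3.

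In the second unit a single peak (171069870 to 171073657, 3787 bp) ran over the glutamate, glycine TCC, aspartate and leucine genes, with 317.5 ChIP tags (283.5 to 354) and 45.5 control tags. It began 1922 bp before n-TEctc8, so a good part of it lies in the stretch between units. In the third unit the peak with the most tags of all members (171075292 to 171080138, 4846 bp) began 4114 bp before n-TEctc7 and ended just past n-TGtcc4. It held 382 ChIP tags (345 to 422) and 43.5 control tags, and it ranked 80 among the 39972 peaks by tags. The last of the 5 (171081196 to 171084772, 3576 bp) covered n-TLcag8 and n-TGgcc14 with 178 ChIP tags (153 to 206) and 24 control tags.

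A further peak (171067863 to 171069106) lay between the first and second unit, 1162 bp from the nearest tRNA gene and so just outside the window, with 73.5 ChIP tags and 8.5 control tags. With it, 6 peaks covered 76.8% of a stretch of 21.2 kb (171063559 to 171084772), with gaps of 525 to 1635 bp. The mark was therefore called across the units and the sequence between them, and not at the tRNA genes alone.

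**Figure D2:**
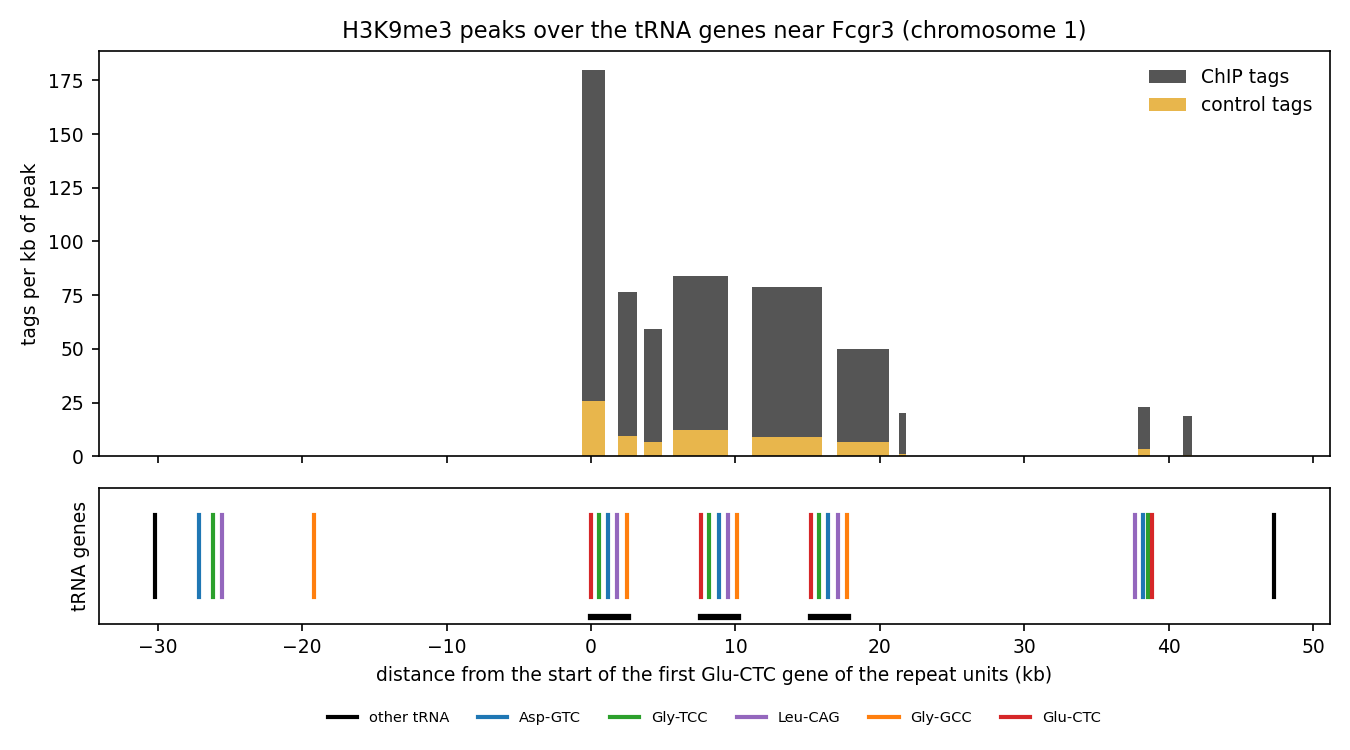
Upper panel: ChIP tags (grey) and control tags (yellow, drawn in front, both from 0) per kb of each deposited peak in the Fcgr3 cluster, against distance in kb from the first glutamate gene of the units. Lower panel: tRNA genes coloured by anticodon, with the 3 units underlined; tall peaks lie over the units, and the 5 members to the left of them have no peak.

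Enrichment over control in these peaks was low beside their height. The authors' fold over control, deposited per peak, was 4.82 and 5.64 in the first unit, 4.77 in the second and 6.01 and 5.07 in the third, not far above 4, the lowest fold in the list. Summed over the 6 peaks at members of the Fcgr3 cluster, 1272.5 ChIP tags stood against 167 control tags, a fold of 5.21 (exact 95% interval 4.43 to 6.16) after scaling to library size. Of the 766 peaks with at least as many tags as the smallest of the 5, 12.5% had a fold of 6.01 or less, and their median was 11.8.

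Control tags were many in the same peaks. The peak over n-TEctc5 and n-TGtcc1 held 25.6 control tags per kb and ranked 49 of 39972 by this measure, and the other 4 held 12.0, 9.28, 8.98 and 6.71 per kb. The median was 1.10 over all peaks and 2.503 over the 766 tall ones. In all, 270 peaks of the list reached 6.71 control tags per kb. ChIP and control tags were thus both high over the units, and the part of the control signal in the number of marked genes was not tested.

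**Figure D3:**
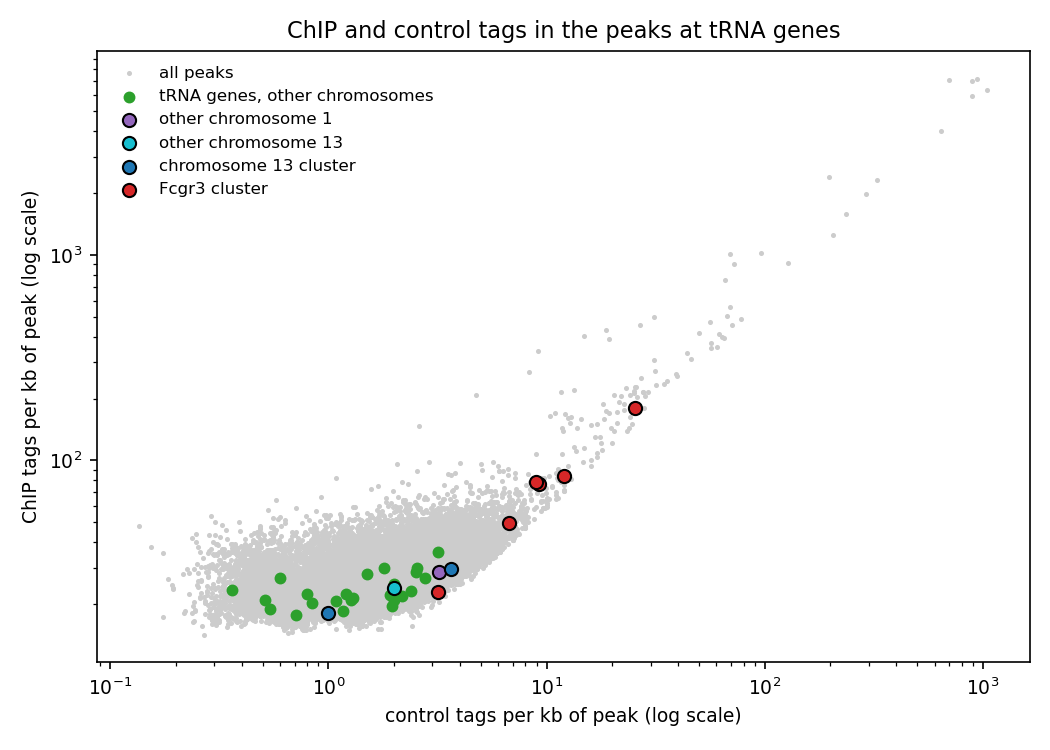
ChIP tags per kb (vertical, log scale) against control tags per kb (horizontal, log scale) for all peaks (grey) and for those at tRNA genes (coloured by group). The 5 tall peaks of the Fcgr3 cluster lie at 6.71 to 25.6 control tags per kb along the lower edge of the cloud, where folds are lowest. The other peaks at tRNA genes have fewer control tags per kb, and some of them also have low folds, down to 4.93.

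The remaining 11 members of the Fcgr3 cluster lie on either side of the units. After them, n-TLcag9, n-TDgtc5, n-TGtcc3 and n-TEctc6 hold 4 of the 5 gene types of a unit, in another order, and shared 1 small peak (171102052 to 171102839) of 18 ChIP tags (10.7 to 28.4) and 2.5 control tags, with a fold of 4.93. Its 22.9 ChIP tags per kb compare with 49.8 to 179.8 for the 5 peaks at the units. The valine gene n-TVcac6 and the histidine gene n-THatg1, farther on, were 5644 and 42365 bp from a peak. Before the units, n-TNgtt6, n-TDgtc4, n-TGtcc2, n-TLcag3 and n-TGgcc4 had no peak within 18504 to 29544 bp, although the last 4 carry anticodons found in the units.

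Fcgr3 itself, which encodes a low-affinity receptor for IgG, had 2 peaks within 1 kb, both of the first unit. Fcgr2b, the inhibitory receptor for IgG, had none. A tall peak 10037 bp before Fcgr2b (170941245 to 170950521, over Gm39701) lies outside the Fcgr3 cluster, 113.6 kb from the first unit. It is given as 1 example only. ChIP tags there numbered 532 (488 to 579), beside 26 control tags, so its fold was 14 and its control 2.80 tags per kb. The peak at Pcp4l1, another listed neighbour of the cluster, was small, with 19 tags.

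Elsewhere on chromosome 1 the proline genes n-TPagg2 and n-TPcgg2 shared a peak (165641780 to 165642561) of 22.5 ChIP tags (14.2 to 33.9) and 2.5 control tags, with a fold of 6.16. The other 9 members there had none. They are n-TEttc1, n-TGgcc3, n-TKctt7, n-TKctt25, n-TKctt26, n-TIaat13, n-TRtct5, n-TSgct1 and n-TNgtt3, with distances to a peak from 1701 bp at n-TEttc1 to 107928 bp at n-TNgtt3. On chromosome 13 outside the cluster, n-TKctt6 lay 7 bp from a peak (4223641 to 4224141) of 12 ChIP tags (6.20 to 20.96) and 1 control tag, with a fold of 8.21.

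The chromosome 13 cluster had few marked genes, 2.88% beside 4.31% of the other small RNA genes on that chromosome. Its first run holds 59 tRNA genes between 21160785 and 22050767, and its second holds 45 between 23270421 and 23530419, with 35 anticodons in all against 8 in the Fcgr3 cluster. In the first run, 1 gene was marked. The arginine gene n-TRtct3 lay 284 bp from a peak (21917531 to 21918031) of 9 ChIP tags (4.12 to 17.1), the lowest count in the list, with 0.5 control tag. In the second run the valine gene n-TVcac2 touched a peak (23411229 to 23412190) of 28.5 ChIP tags (19.01 to 41.1) and 3.5 control tags, and the alanine gene n-TAagc7 lay 751 bp from the same peak. The folds were 12.32 and 5.57, the first of them resting on the lowest control value.

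These 2 peaks together held 37.5 ChIP tags and 4 control tags, or 2.74 control tags per kb (0.746 to 7.01), against 10.55 (9.01 to 12.3) at the Fcgr3 cluster. Their summed fold was 6.42 with an interval of 2.31 to 24.8, which holds the value of the Fcgr3 cluster, so a difference in fold was not detectable at this depth. As a description of height, the tallest peak at the Fcgr3 cluster had 382 tags and the tallest at the chromosome 13 cluster 28.5.

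The stretch itself was not without the mark. The first run held 14 peaks, or 15.7 per Mb, and the second 4, or 15.4 per Mb, beside 13.2 per Mb over chromosome 13. In each run 1 peak lay within 1 kb of a tRNA gene. The share of each run that lies within 1 kb of a tRNA gene was not computed. Whether peaks avoid the tRNA genes there was therefore not tested. The histone gene H4c17, which encodes histone H4, lay near the tallest peak of the first run (21812691 to 21817545), with 184 ChIP tags (158 to 213), 10.5 control tags and a fold of 11.99, and this peak was 30477 bp from the nearest tRNA gene. Canonical histone genes within 200 kb of a member had a peak in 15 of 43 cases (34.9%, exact 95% interval 21.0 to 50.9%). Some of the 15 shared a peak, so they are not 15 separate observations. The share was 31.8% for all genes and 49.2% for protein-coding genes. Most of these histone genes are far shorter than the medians of those groups, 5996 and 17219 bp. Among the other small RNA genes of chromosome 13, which are shorter still, the share was 4.31%. H2bc6 and H1f4 shared the next tallest peak at these histone genes, of 48.5 tags. Of 38 Btn, Vmn1r and Zfp genes in the same reach, only the zinc finger gene Zfp184 had a peak, of 13.5 tags. The other Zfp genes there, Zfp389 and Zfp322a, had none. Most of the 38 are Vmn1r genes or pseudogenes, which are shorter than the median of all genes and so offer less sequence to a peak.

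**Figure D4:**
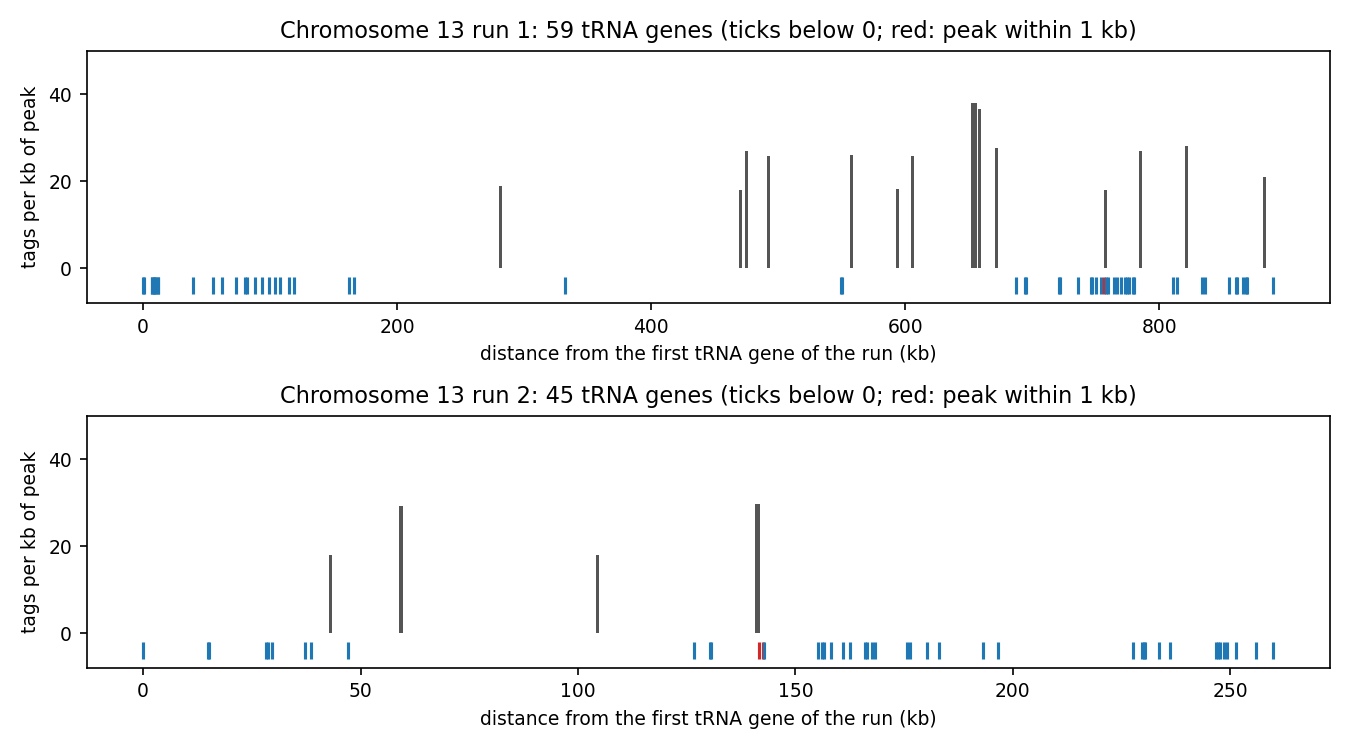
ChIP tags per kb (vertical) of every deposited peak in the 2 runs of the chromosome 13 cluster, against distance in kb from the first tRNA gene of the run. Ticks below 0 are tRNA genes, red where a peak lies within 1 kb. The first run holds 14 peaks and the second 4, and in each run 1 peak lies within 1 kb of a tRNA gene.

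Distances to the nearest peak gave the same order without a window. The median was 0 bp in the Fcgr3 cluster, 8890 bp in the rest of chromosome 1 and 20.2 kb in the chromosome 13 cluster, where 24 members were over 100 kb from any peak and the farthest 279.9 kb. Close to the limit of the rule, n-TGgcc13 at 645 bp and n-TAagc7 at 751 bp were the last members inside. The valine gene n-TVaac5 at 1058 bp and the serine gene n-TSaga5 at 1184 bp, both on chromosome 13, were the first outside.

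**Figure D5:**
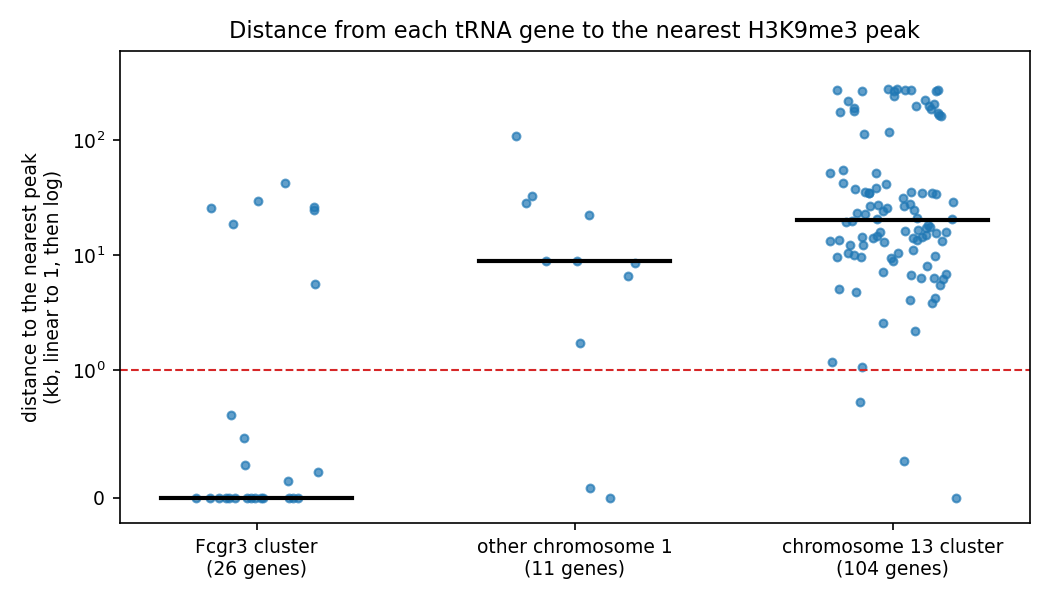
Distance from each tRNA gene to the nearest peak (vertical axis in kb, linear up to 1 and log above) in 3 groups; each point is a gene, spread sideways for sight, black bars are medians and the dashed line marks 1 kb. Most genes of the Fcgr3 cluster lie at 0, and 79 of 104 in the chromosome 13 cluster lie beyond 10 kb.

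The anticodons of the units were not marked wherever they occur. Outside the Fcgr3 cluster the 5 anticodons are found at 28 genes on other chromosomes, of which 9 (32.1%) had a peak beside 14.2% of all tRNA genes there. Some of the 9 shared a peak, so they are not 9 separate observations. The 14.2% includes the 28 genes themselves, and single anticodons differ widely within it. For example, 2 of 56 cysteine GCA genes and 4 of 11 asparagine GTT genes on other chromosomes had a peak. None of the 7 genes with these anticodons on chromosome 13 had one, nor did the 1 elsewhere on chromosome 1. All 7 lie in the chromosome 13 cluster, where 2.88% of the tRNA genes had a peak, so their lack of peaks says little about the anticodon. The same holds for the 1 gene on chromosome 1. Of the glycine GCC genes, 4 of 7 on other chromosomes were marked, some of them by a shared peak of 9 ChIP tags. Of the leucine CAG genes there, 0 of 4 were marked. At the 30 peaks of tRNA genes on other chromosomes the summed fold was 10.5 (7.67 to 14.75) with 1.56 control tags per kb. The same values at the Fcgr3 cluster were 5.21 and 10.55.

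Some of the genes for RNA polymerase III transcription, of tRNA and other small RNAs, and for tRNA processing had a peak. Of 13 genes for subunits of RNA polymerase III, 7 (53.8%) had a peak within 1 kb, the tallest at Polr1d, a subunit shared with RNA polymerase I (89 tags, fold 9.37), Polr3a, the largest subunit (45.5 tags, fold 15.57), and Polr3d (28 tags, fold 9.58). Of 17 initiation and repressor genes, 7 had one. The tallest were at Snapc4 (37 tags), Gtf3a, the factor of 5S genes (18 tags), and Brf1, a subunit of TFIIIB (15 tags), while Maf1, the repressor of the polymerase, had none. Of 19 genes for tRNA end processing and splicing, 8 had a peak, led by Pop5 and Tsen54 with 21.5 tags each and Rpp25 with 18.5. On 13 to 19 genes each, these shares (53.8, 41.2 and 42.1%) lay near the 49.2% of protein-coding genes.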

How the data were processed

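The submitters' processing notes name Bowtie2 2.2.8 and HOMER 4.10.1 and the builds GRCm38 and mm10. The caller's options are not stated. Per the file headers, the deposited list gives for each peak a normalized tag count (a signal scaled to a library total that is not stated), the authors' score, the p-value, the control tags and the fold over control, which is a ratio of scaled ChIP tags to control tags. Positions and widths are in bp, as the authors' list gives them.

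Low normalized counts were whole steps of 0.524, worth 0.5 tag, in 100% of cases within 0.1 step, which gave the tags of each peak. In size the control library was 0.684 of the ChIP library. With scaling to 10 M tags, which no header states, the libraries held 9.55 and 6.53 M. Overlaps were computed in Python 3.11 with a RefSeq gene table of GRCm38.p6, which gives no strand for tRNA genes, and were tested on simulated data. Intervals are 95%: exact Poisson for tags (extended to steps of 0.5 tag), Clopper-Pearson for shares, and the binomial share of ChIP in all tags for folds. PCR duplicates are not covered by them. The chromosome 13 cluster takes members in runs of at least 5 with gaps up to 1 Mb.

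Members and lists were chosen with earlier results of these data known. All marked members and all their peaks are named, unmarked ones where 10 or fewer, and up to 3 genes of each other list. The neighbours of the Fcgr3 cluster are reported in part. With 1 library per group no test was made. Repeat classes and the genome sequence were not used here. The sort was not checked, since a peak list measures no expression.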

Additional observations from a re-analysis of the deposited data

How the results depend on the processing

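Of the other settings tried on 9 results, 41 values stayed within the limit set for each (1.5 times for a count, the 95% interval for a fold or a control level) and 19 did not. With the gene span alone, 16 of the 142 members had a peak, 1 of them in the chromosome 13 cluster at 1 peak. With 5 kb on either side, the chromosome 13 cluster had 11 marked genes at 4 peaks, while the Fcgr3 cluster had 19. The share over all genes was taken for the 1 kb rule only, so counts under other settings have no background beside them. Asking for the peak centre gave 15 members, 10 of them in the Fcgr3 cluster, whose control was then 13.4 tags per kb. Peaks of at least 8-fold, which are 79.5% of all peaks, left 2 members in all. In the chromosome 13 cluster 1 gene at 1 peak remained, and in the Fcgr3 cluster 0 genes and 0 peaks. This follows from the folds of 4.77 to 6.01. With at most 10 control tags, 10 members had a peak, 4 of them in the Fcgr3 cluster at 1 peak with 3.18 control tags per kb. Peaks with a score at or above the median, and likewise runs with gaps up to 100 kb, left the chromosome 13 cluster 1 peak. Each of the 5 peaks at the units had a fold of at most 6.01 and at least 12 control tags. No fold or control level could be given for the Fcgr3 cluster among peaks of at least 8-fold. No paired analysis was possible because there is 1 library per group. Depth limits the chromosome 13 values, whose peaks held 9 and 28.5 tags. Their intervals were wide, 2.31 to 24.8 for the fold and 0.746 to 7.01 for control tags per kb. A fold of 12.32 therefore still counted as within the limit, and staying within it says little there.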

Other observations

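The 5S ribosomal RNA genes, another tandem array read by RNA polymerase III, had a summed fold over control close to that of the Fcgr3 cluster. Summed over peaks, their tags per kb were fewer. Of 41 genes in the array on chromosome 8, 40 had a peak within 1 kb, at 28 peaks, and 1 of the 28 5S genes elsewhere did. The summed fold was 5.20 (4.60 to 5.89) with 44.1 ChIP and 5.81 control tags per kb over these peaks. The summed values at the Fcgr3 cluster were 5.21, 80.4 and 10.55. The tallest peak held 235.5 ChIP tags. Of the whole list of 78 other RNA polymerase III genes, which adds U6 and further small RNAs, 42 (53.8%) had a peak. The share over all genes was 31.8%. Of the 42, 41 were 5S genes, 40 of them in the array, and the other was Rnu6 with 44 tags. The rest of the added genes had none, so the share comes mostly from 1 array.

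The tRNA genes of chromosome 3 had the tallest peaks outside chromosomes 1 and 13. The histidine gene n-THgtg9 and the asparagine gene n-TNgtt13 shared a peak of 83.5 ChIP tags (66.6 to 103) and 5 control tags (96458232 to 96461018), with a fold of 11.43. On chromosome 6, none of the 53 tRNA genes had a peak (exact 95% upper limit 6.72%), and the nearest peak lay 3252 bp away. The share was 14.2% over the tRNA genes of all chromosomes other than 1 and 13. It was 6.47% of small nucleolar and 3.81% of small nuclear RNA genes, both below that limit. The limit treats the 53 genes as separate, although tRNA genes lie in clusters.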
